A study of Mus musculus with 6 samples.

Results

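The EphA receptors are the 9 genes Epha1 to Epha8 and Epha10 of the mouse, found by gene symbol among 50559 genes in RNA sequencing of the auditory cortex of C57 mice. Of the 6 libraries, 3 carry the genotype label WNT3 Overexpressing and 3 the label WNT3 control. The study asked which molecular changes follow an excess of Wnt3, a secreted Wnt ligand, in this cortical area. The tissue label names auditory cortex while the extraction protocol names striatum, and the labels give neither the age of the mice, the way Wnt3 was raised, what the controls received nor whether libraries come from separate animals, so p-values measure the spread between these libraries only. The family was taken up because Epha8 was already known to be lower in the overexpression libraries, so the fold changes of its members between the groups are given as a description. Counts of members called by the tests over all genes stand beside the share of all genes called, with nothing read from them.

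EphA receptors are tyrosine kinases of the cell surface that bind ephrin-A ligands, proteins tied to the membrane of a neighbouring cell by a lipid anchor. Binding sends a signal into the receptor-bearing cell and another into the ligand-bearing cell, and the usual outcome for a growing axon is repulsion. In the developing brain graded EphA and ephrin-A levels order the maps that axons form in the tectum, thalamus and cortex. In the adult brain the same receptors act at dendritic spines and at contacts between neurons and astrocytes.

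Total counts ranged between 54642400 and 71803617 in the overexpression group and between 42614588 and 55859274 in the control group. Wnt3 itself was at 98.8, 7.45 and 8.71 CPM (counts scaled to a common library size, with TMM factors) in the overexpression libraries, against 2.70, 1.91 and 1.74 CPM in the controls, so it was higher in every overexpression library and highest by far in library 1. The 10 listed markers of cortical excitatory neurons summed to 2546 to 2699 TPM (scaled by the authors for transcript length and library size) in overexpression and 1458 to 2689 TPM in control, and the 8 striatal markers to 173 to 218 TPM in overexpression and 138 to 251 TPM in control. Of the cortical sum, Camk2a alone gave 1598 to 1802 TPM in overexpression and 769 to 1844 TPM in control. Which tissue was sampled was not tested. The 7 midbrain markers summed to 0.153 to 0.600 TPM in overexpression and 0.0655 to 0.268 TPM in control, and Gata3, Pou4f2 and En1 had no count in any library. The 7 markers of infiltrating leukocytes summed to 28.9 to 202 TPM in overexpression and 5.44 to 9.17 TPM in control, and the 7 endothelial markers to 129 to 187 TPM in overexpression and 87.4 to 119 TPM in control. Neither of these 2 sums overlapped between the groups, also in CPM, and their part in the results below was not tested. Control library 2 stood apart. It held fewer reads of long transcripts: against the other 2 controls its median log2 CPM difference was -0.59 over the 5590 tested genes with the longest transcripts and 0.82 over the 5590 with the shortest, so values are also given without it.

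The promoter sequences show where the family is alike and where Epha8 differs from it. RefSeq windows of 300 bases (GRCm38.p6), 250 before and 50 after the start of transcription, were found for all 9 genes, 10 windows in all since Epha7 has 2 starts. The Epha8 window held 56 CpG dinucleotides and 84.3% G and C, and its CpG count was above that of 99.8% of the 32851 windows in the table. The other 9 EphA windows held from 10 CpG in Epha2 to 30 in Epha5, against a median of 7 over all windows. Below are the 200 most upstream bases of the windows of Epha8, the member with the largest difference between the groups, of Epha4, the most abundant member, and of Epha2, the window poorest in CpG, each 5′ to 3′ on the strand of its gene with every CpG in capitals.
Epha8: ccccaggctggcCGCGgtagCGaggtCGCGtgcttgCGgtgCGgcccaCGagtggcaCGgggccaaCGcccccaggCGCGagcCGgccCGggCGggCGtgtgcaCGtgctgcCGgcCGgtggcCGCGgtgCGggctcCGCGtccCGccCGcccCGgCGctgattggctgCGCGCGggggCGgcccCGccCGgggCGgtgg
Epha4: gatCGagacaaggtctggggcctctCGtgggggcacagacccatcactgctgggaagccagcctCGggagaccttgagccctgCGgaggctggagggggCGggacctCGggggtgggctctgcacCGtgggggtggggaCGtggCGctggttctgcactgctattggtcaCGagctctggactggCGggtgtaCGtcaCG
Epha2: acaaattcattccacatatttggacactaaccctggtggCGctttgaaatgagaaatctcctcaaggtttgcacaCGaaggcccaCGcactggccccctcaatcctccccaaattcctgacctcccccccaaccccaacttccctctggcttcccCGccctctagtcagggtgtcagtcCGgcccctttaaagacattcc
The first lies at chr4:136956867-136957066 on the minus strand, the second at chr1:77515139-77515338 on the minus strand and the third at chr4:141300971-141301170 on the plus strand. They hold 35 CpG in Epha8, 13 in Epha4 and 5 in Epha2. The windows were also searched on both strands for the core recognised by the TCF and LEF factors of Wnt signalling, spelled as CTTTGNN with A or T at each N. It was present in 1 of the 10 EphA windows, as CTTTGAA from base 42 of the Epha2 window, and in 16.9% of all windows of that length. A match is a run of letters and not a shown binding site.

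Epha4 was the most abundant EphA transcript in each of the 6 libraries. Epha4 (chromosome 1, positions 77367185 to 77515088 on the minus strand of mm10) encodes a receptor that binds ephrins of both classes and guides corticospinal axons. Its levels in libraries 1, 2 and 3 were 83.2, 70.2 and 56.2 TPM in overexpression, against 66.1, 23.0 and 76.1 TPM in control. Epha4 made up 46.2% ± 4.74 of the summed EphA TPM in overexpression and 44.5% ± 5.27 in control (SD, n = 3 each). Epha10, whose product lacks kinase activity, followed with 22.4% ± 6.69 in overexpression and 22.8% ± 7.19 in control (SD, n = 3 each). The summed EphA level was 162, 155 and 134 TPM in the overexpression libraries and 136, 59.6 and 164 TPM in the controls, where control library 2 alone was below the rest.

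The order of the levels, which was not used to choose the members, ran from Epha4 through Epha10, Epha7, Epha5, Epha6, Epha3, Epha8 and Epha2 to Epha1. Mean levels over the 6 libraries were 62.5 ± 21.4 TPM for Epha4, 29.1 ± 8.70 TPM for Epha10, 18.0 ± 6.04 TPM for Epha7 and 15.6 ± 4.84 TPM for Epha5 (SD, n = 6). They were 4.09 ± 2.59 TPM for Epha6, 2.60 ± 0.87 TPM for Epha3, 2.26 ± 0.94 TPM for Epha8, 0.613 ± 0.285 TPM for Epha2 and 0.256 ± 0.0851 TPM for Epha1 (SD, n = 6). Of the 8 pairs of neighbours in this order, 4 kept their order in all 6 libraries: Epha4 over Epha10, Epha10 over Epha7, Epha5 over Epha6 and Epha8 over Epha2. For these pairs the two-sided exact sign-flip permutation test over the 6 libraries gave p = 0.03125, the smallest that 6 libraries allow, and 0.0625 after Benjamini-Hochberg adjustment over the 8 pairs, so no neighbours could be separated at an adjusted 0.05 by this test. Epha8 and Epha2 were the neighbours whose ranges did not overlap, with Epha8 at 1.44 to 9.56 times the level of Epha2. Epha3 and Epha8 changed places between the groups. Epha3 was at 3.14, 2.10 and 3.17 TPM in overexpression, above Epha8 in all 3 libraries, and at 3.11, 1.02 and 3.04 TPM in control, below Epha8 in all 3. Their order over the pooled libraries therefore mixes the groups, and is not tested further since Epha8 was chosen on this contrast. Without control library 2, 6 of the 8 pairs kept their order in every library. In CPM, which is not scaled for length, Epha5 was above Epha7 in all 6 libraries, so their order depends on the length scaling.

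**Figure D1:**
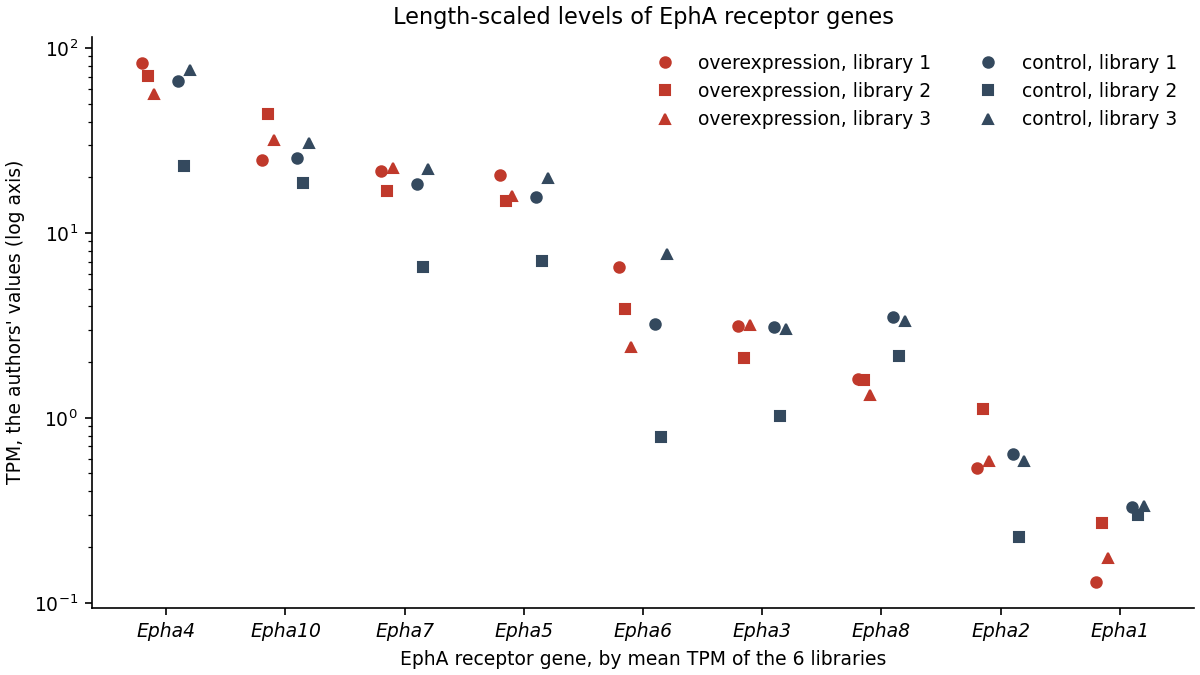
Level of each EphA receptor gene in TPM on a log axis, with genes along the horizontal axis by their mean over 6 libraries and 1 point per library (overexpression left of control for each gene). Epha4 averaged 62.5 TPM and Epha1 0.256 TPM, and control library 2 lies low for most genes.

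Epha8 was lower in all 3 overexpression libraries than in each of the 3 controls. Epha8 lies on chromosome 4, positions 136929419 to 136956816 on the minus strand of mm10, with 17 exons in its 1 annotated transcript, and no other annotated gene overlaps it. Its product is known from knockout mice for guiding axons from the superior colliculus to the opposite inferior colliculus. Libraries 1, 2 and 3 held 169, 193 and 191 Epha8 counts in overexpression, against 297, 340 and 335 in control. On the CPM scale these were 3.01, 3.10 and 2.67 in overexpression, a mean of 2.93 ± 0.22 (SD, n = 3), and 6.97, 6.24 and 6.63 in control, a mean of 6.61 ± 0.37 (SD, n = 3). The groups did not overlap in raw counts or in CPM.

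The log2 fold change of Epha8 was -1.17 ± 0.23 (SE), or 0.443 of the control level. It was -1.21 without control library 2, and lay between -1.21 and -1.12 when any single library was left out. In TPM, Epha8 was at 1.62, 1.601 and 1.34 in the overexpression libraries, against 3.52, 2.16 and 3.32 in the controls, again without overlap. As a share of all EphA TPM, Epha8 held 0.997% to 1.03% in overexpression and 2.58%, 3.62% and 2.03% in control libraries 1, 2 and 3. The highest share, in control library 2, stood over a low EphA sum of 59.6 TPM, and Epha8 itself was lowest there among the controls. In bulk tissue, fewer cells that express a gene and less of its RNA per cell cannot be told apart.

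Epha1, the founding member of the family and best known from epithelia, also did not overlap between the groups, but at a level close to the limit of detection. Epha1 (chromosome 6, positions 42358487 to 42373268, minus strand) had 10, 23 and 17 counts in libraries 1, 2 and 3 of the overexpression group and 20, 33 and 24 counts in those of the control group. That gave 0.178, 0.369 and 0.238 CPM in overexpression, against 0.469, 0.605 and 0.475 CPM in control, and a log2 fold change of -0.97 ± 0.50 (SE). The raw counts overlapped, and the CPM did not. On the plus strand Zyx, a gene for a focal adhesion protein, overlaps one end of Epha1 and the antisense gene 2010310C07Rik the other, and as the strand setting of the counting is not given, reads of these genes and of Epha1 cannot be told apart. With single libraries left out, its log2 fold change lay between -1.29 (overexpression library 2 omitted) and -0.76 (overexpression library 1 omitted).

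**Figure D2:**
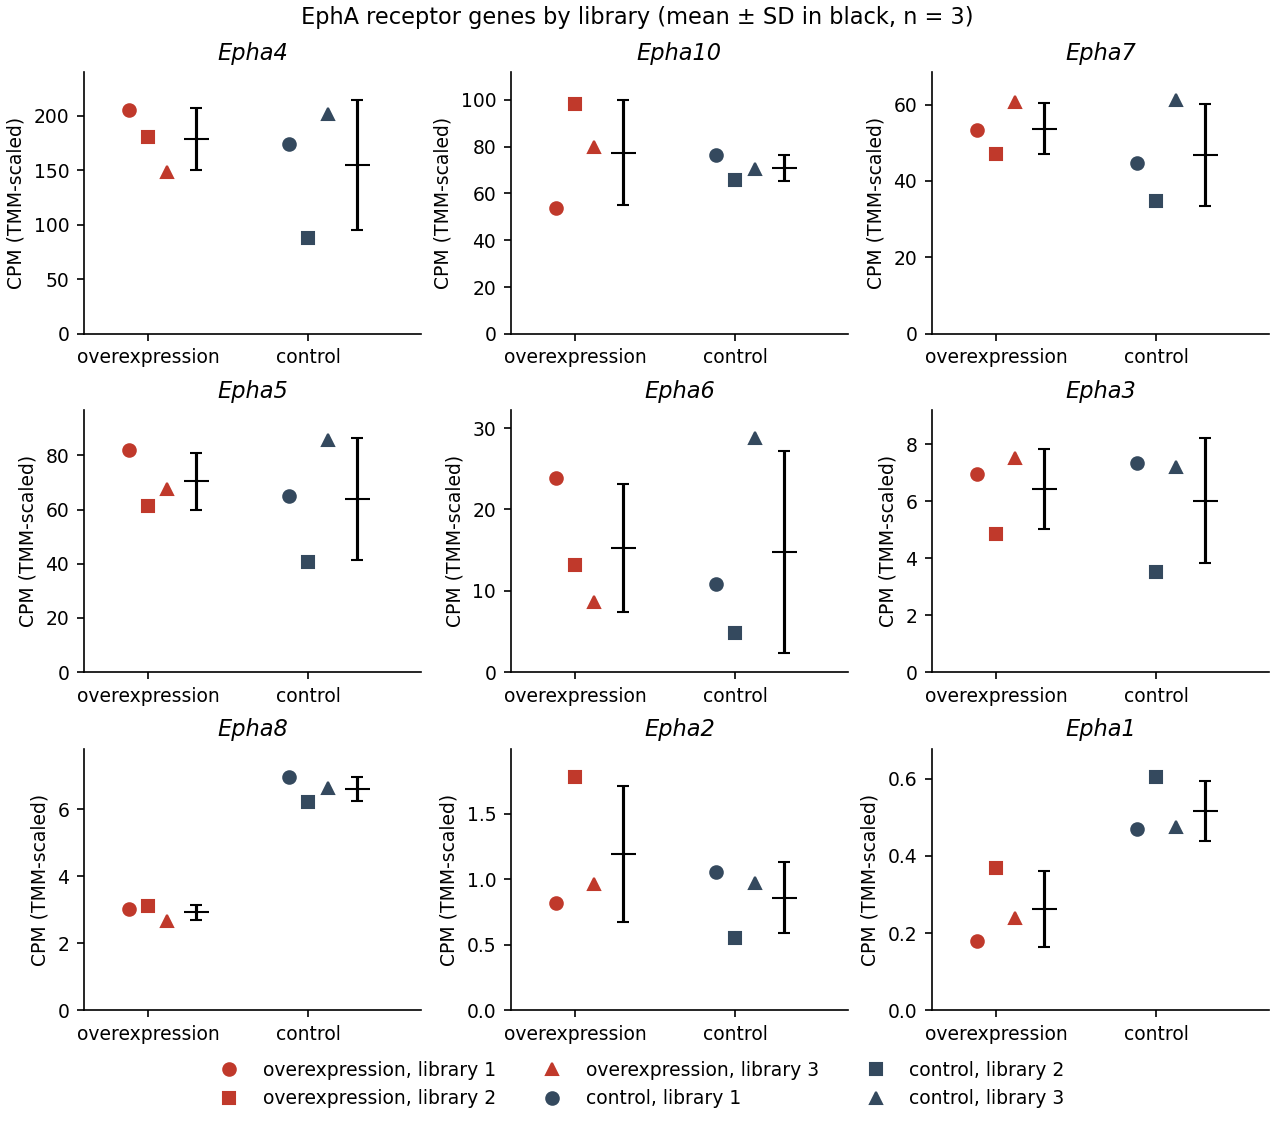
TMM-scaled CPM of the 9 EphA receptor genes, 1 panel per gene with its own vertical axis from 0, overexpression left and control right. Each symbol is 1 library and the black bar is the mean ± SD of 3 libraries; in the Epha8 panel the overexpression libraries lie between 2.67 and 3.10 CPM and the controls between 6.24 and 6.97 CPM.

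The 4 most abundant receptors, Epha4, Epha10, Epha7 and Epha5, overlapped between the groups. Epha4 was at 206, 181 and 149 CPM in overexpression and 174, 88.0 and 202 CPM in control, a log2 fold change of 0.21 ± 0.30 (SE). Control library 2 was the lowest and the highest value lay in overexpression library 1, only just above control library 3. Without control library 2 the log2 fold change of Epha4 was -0.08.

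Epha5 (chromosome 5, positions 84054761 to 84417382, minus strand), a receptor of topographic mapping and synapse formation, was at 82.1, 61.4 and 67.7 CPM in overexpression and 65.1, 40.7 and 85.6 CPM in control. Its log2 fold change was 0.14 ± 0.27 (SE), and -0.10 without control library 2. Epha7 (chromosome 4, positions 28813131 to 28967499, plus strand), which acts in cortical progenitors and in the sorting of corticothalamic axons, was at 53.3, 47.2 and 60.7 CPM in overexpression and 44.7, 34.8 and 61.1 CPM in control. Its log2 fold change was 0.20 ± 0.23 (SE), and 0.02 without control library 2. For Epha5 and Epha7 the highest value was in control library 3 and the lowest in control library 2, so the controls spanned the whole range.

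Epha10 (chromosome 4, positions 124880899 to 124917800, plus strand) varied more among the overexpression libraries in CPM. It was at 53.8, 98.4 and 80.0 CPM in overexpression, against 76.5, 65.7 and 70.5 CPM in control. The log2 fold change was 0.13 ± 0.23 (SE), and the SD of log2 CPM was 0.44 in overexpression and 0.11 in control. On the TPM scale Epha10 was at 24.7, 44.1 and 31.6 in overexpression and 25.3, 18.5 and 30.5 in control, where the controls did not lie close together. The sign of the Epha10 fold change turned without overexpression library 2, to -0.08. An antisense gene, 1700125G02Rik, lies within Epha10.

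The scarcer receptors Epha6, Epha3 and Epha2 also overlapped. Epha6 (chromosome 16, positions 59653483 to 60605531, minus strand), a receptor of the brain, varied most, with 23.9, 13.2 and 8.60 CPM in overexpression and 10.8, 4.86 and 28.7 CPM in control. Its log2 fold change of 0.04 ± 0.61 (SE) was -0.44 with overexpression library 1 omitted, -0.38 with control library 2 omitted and 0.97 with control library 3 omitted, so that 1 library set its direction. Epha3 (chromosome 16, positions 63543534 to 63864175, minus strand), a guidance receptor of retinal axons, was at 6.96, 4.85 and 7.52 CPM in overexpression and 7.34, 3.50 and 7.22 CPM in control. The log2 fold change of Epha3 was 0.10 ± 0.34 (SE), and -0.17 without control library 2. Epha2 (chromosome 4, positions 141301240 to 141329384, plus strand), best known from epithelia and lens, was at 0.820, 1.78 and 0.966 CPM in overexpression and 1.06, 0.550 and 0.969 CPM in control. Its log2 fold change of 0.47 ± 0.45 (SE) was 0.06 without overexpression library 2, the library with its highest level.

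Over the family, 7 of 9 members had a fold change above 1 with all libraries, beside 11032 of the 22360 genes tested. The family's median log2 fold change was 0.13, beside -0.01 over all 22360 genes tested. Without control library 2 the family median was -0.10, beside 0.02 over all genes. Control library 2 was the lowest of the 6 libraries for 6 members, Epha2, Epha3, Epha4, Epha5, Epha6 and Epha7. Against the mean of the other controls, its log2 CPM differed by -1.85 for Epha6, -1.09 for Epha4, -1.05 for Epha3, -0.87 for Epha5, -0.84 for Epha2 and -0.59 for Epha7, but by -0.12 for Epha8, -0.16 for Epha10 and 0.34 for Epha1. The relative transcript length of the members was at percentile 95.3 of tested genes for Epha5, 93.6 for Epha6, 87.9 for Epha7, 86.0 for Epha4, 83.9 for Epha10, 82.5 for Epha3, 75.6 for Epha8, 66.7 for Epha2 and 58.4 for Epha1. This length is the ratio of counts to TPM, and the differences in control library 2 followed its order only in part. Epha2, at a lower percentile than Epha8, lay further below the other controls. Epha10, at a percentile just above that of Epha3, lay hardly below them. By the longest annotated transcript, however, Epha10 was shorter than Epha3, at 4660 against 5663 bases. With each library's trend on transcript length removed, the log2 fold changes of Epha3, Epha4, Epha5, Epha6, Epha7 and Epha10 lay between -0.06 and 0.07, that of Epha2 was 0.41, that of Epha1 -1.01 and that of Epha8 -1.31.

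**Figure D3:**
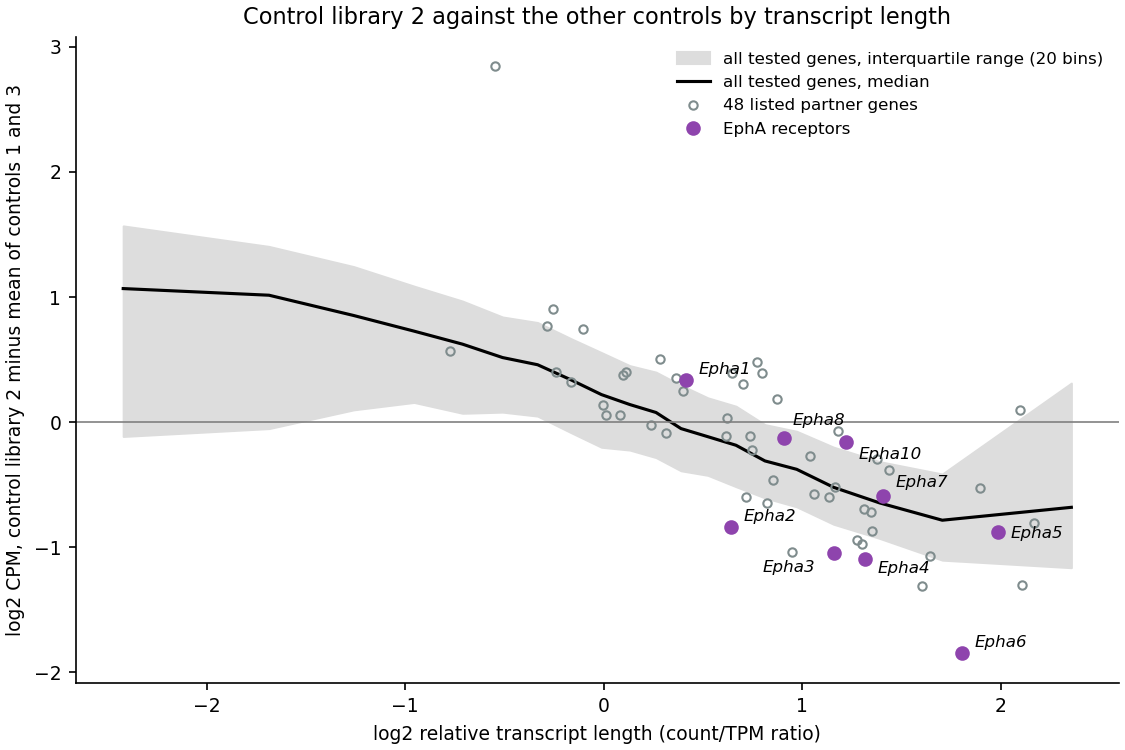
Log2 CPM of control library 2 minus the mean of control libraries 1 and 3 (vertical axis) against log2 relative transcript length (horizontal axis). The line and band are the median and interquartile range of tested genes in 20 bins, filled points are EphA receptors and open points the 48 listed partner genes; Epha6 lies lowest at -1.85.

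**Figure D4:**
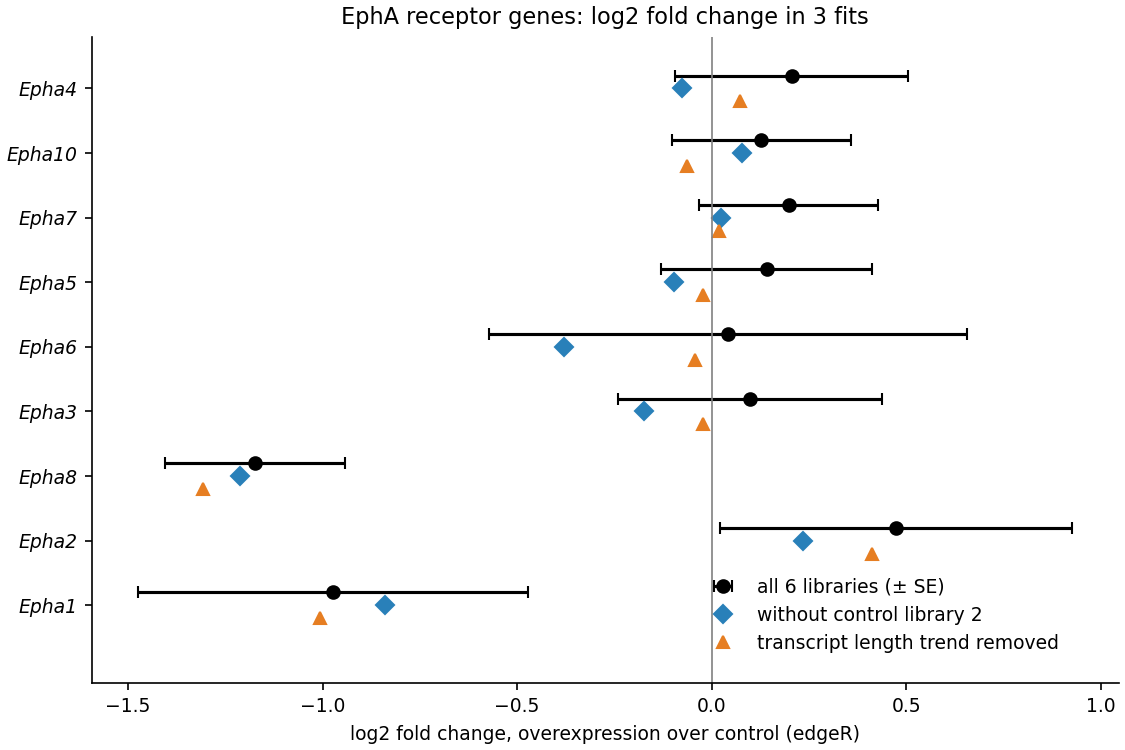
Log2 fold change of each EphA receptor gene, overexpression over control, with all 6 libraries (black, ± SE), without control library 2 (diamonds) and with the transcript length trend removed (triangles). Epha8 lies between -1.31 and -1.17 in the 3 fits, while Epha3, Epha4, Epha5, Epha6 and Epha10 change sign in at least 1 of them.

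The edgeR quasi-likelihood test over all genes called 0 of the 9 members at an adjusted p of 0.05, where it called 0% of the 22360 genes tested. At an unadjusted p under 0.05 it had 1 member, Epha8, beside 4.65% of all genes in either direction and 2.8% lower in overexpression. DESeq2 called 1 member, Epha8, beside 0.25% of the genes to which it gave an adjusted p, and limma voom called 0 members, with 0% of genes called and 1 member at an unadjusted p under 0.05. DESeq2 also called Epha8 without control library 2, but called 0 members when any one of the other 5 libraries was left out. Groups did not overlap in 2 of 9 members, both lower, beside 11.9% of all tested genes in either direction and 6.04% lower. As Epha8 was chosen on this contrast, nothing is read from these counts. Wnt3 itself was called by none of these tests, with a log2 fold change of 4.18 ± 1.02 (SE) and an adjusted p of 0.822 by edgeR. For Wnt3 limma voom gave an adjusted p of 0.775 and DESeq2 gave none. A gene not called in these fits is therefore not shown to be unchanged. All 9 members passed the filter on low counts, each with its level at or above the filter's 0.181 CPM in all 6 libraries on unscaled library sizes.

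The spread between libraries differed among members. The biological coefficient of variation fitted by edgeR was 0.52 for Epha6, 0.40 for Epha2, 0.38 for Epha1 and 0.32 for Epha3. It was 0.28 for Epha4, 0.25 for Epha5, 0.24 for Epha8 and 0.22 for both Epha7 and Epha10, beside a median of 0.30 over all tested genes. The SD of log2 CPM within a group, which borrows nothing from other genes, ranked the members otherwise. It was 0.74 in overexpression and 1.28 in control for Epha6, the most of the family in both groups, and 0.11 in overexpression and 0.08 in control for Epha8, the least in both. For Epha7 it was 0.18 in overexpression and 0.41 in control. Epha8 was chosen on this contrast in these same libraries, so its small spread is a description only.

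The ephrin-A ligands, the partners of these receptors, overlapped between the groups for all 5 genes, where 11.9% of all tested genes did not overlap. Efna5, the ligand best known from topographic maps, was at 46.3, 40.8 and 39.8 CPM in overexpression and 44.3, 31.8 and 33.2 CPM in control, a log2 fold change of 0.21 ± 0.19 (SE). Efna3, a ligand of astrocytes that acts on EphA4 at spines, was at 28.0, 25.9 and 28.4 CPM in overexpression and 21.9, 43.0 and 30.1 CPM in control, a log2 fold change of -0.21 ± 0.25 (SE). Efna1 and Efna2 had log2 fold changes of 0.17 ± 0.36 and -0.16 ± 0.37 (SE). Efna4 had from 0 to 0.24 CPM over the 6 libraries and is too scarce for a fold to be read. Summed ephrin-A levels were 56.6 to 61.8 TPM in overexpression and 49.6 to 54.7 TPM in control, which did not overlap. In CPM the same sums were 74.3 to 80.3 in overexpression and 70.1 to 84.7 in control, which overlapped, with control library 2 highest.

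The ephrin-B ligands, of which Efnb3 marks the midline for EphA4-bearing axons, had log2 fold changes of 0.08 ± 0.32 for Efnb1, 0.04 ± 0.21 for Efnb2 and -0.05 ± 0.20 for Efnb3 (SE). Among EphB receptors, the sister class that binds ephrin-B, 4 of 5 had a log2 fold change below 0, beside 11328 of the 22360 genes tested. The EphB median was -0.17, and -0.03 without control library 2. The groups overlapped in all 5 EphB receptors, where 11.9% of all tested genes did not overlap. Ephb1, a guidance receptor of retinal and cortical axons, was at 30.9, 22.3 and 39.1 CPM in overexpression and 38.6, 43.9 and 38.5 CPM in control, a log2 fold change of -0.39 ± 0.22 (SE). Ephb3 had one of -0.33 ± 0.19, Ephb6, a receptor without kinase activity, one of -0.17 ± 0.18, Ephb2 one of -0.02 ± 0.26 and Ephb4, a receptor of veins, one of 0.25 ± 0.36 (SE). The edgeR test called 0 of these 13 ephrins and EphB receptors, beside 0% of all genes tested. At an unadjusted p under 0.05 it had 0, beside 4.65% of all genes. DESeq2 called 0, beside 0.25% of the genes to which it gave an adjusted p, and limma voom 0, beside 0%.

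Behind the receptors, 17 regulators and effectors of small GTPases and 18 adaptors, kinases, phosphatases and a protease were listed. By edgeR 0 of these 35 genes passed, beside 0% of all genes tested, and 1 had an unadjusted p under 0.05, beside 4.65%. DESeq2 called 0, beside 0.25% of the genes to which it gave an adjusted p, and limma voom 0, beside 0%. Vav2, an exchange factor used in the uptake of ephrin-bound receptors, was at 15.02, 12.9 and 10.6 CPM in overexpression and 8.05, 8.53 and 9.97 CPM in control. Its groups did not overlap, with a log2 fold change of 0.54 ± 0.22 (SE) and an adjusted p of 0.822 by edgeR with Benjamini-Hochberg adjustment. Ngef, the exchange factor ephexin that binds EphA receptors, had a log2 fold change of -0.30 ± 0.18 and Pak1, a kinase downstream of Rac, one of -0.17 ± 0.14 (SE). In the second list the smallest p belonged to Ptpn11, a phosphatase, with 0.34 ± 0.22, Acp1, the low-molecular-weight phosphatase, with -0.28 ± 0.19, and Anks1, an adaptor of EphA receptors, with 0.28 ± 0.20 (log2 ± SE). Over all 48 partners, 27 had a log2 fold change above 0 and 21 below, beside 11032 above and 11328 below over all genes tested. The median of the partners was 0.07, and 0.01 with control library 2 omitted. The groups did not overlap in 4 of the 48, Vav2 and Grb2 above and Cdc42 and Pak1 below the controls, beside 11.9% of all tested genes.

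The genes whose log2 CPM over the 6 libraries ran most like that of Epha8, among 16658 genes with a mean of at least 1 CPM, were Gucy2g, Nrep and Fzd10, with Pearson r of 0.985, 0.982 and 0.980 (n = 6 libraries, which fall into the 2 groups, given as a description). Gucy2g, a guanylate cyclase, was at 5.53, 5.16 and 4.92 CPM in overexpression and 13.6, 12.9 and 10.96 CPM in control. Fzd10, a Wnt receptor, was at 0.713, 0.771 and 0.420 CPM in overexpression and 2.16, 2.18 and 2.06 CPM in control. Nrep, a gene of neurite growth, was at 57.3, 56.0 and 47.1 CPM in overexpression and 108, 94.1 and 88.5 CPM in control. All 3 had groups that did not overlap and were lower in overexpression, the pattern by which they were picked.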

How the data were processed

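Per the labels' protocols, total RNA from Trizol extraction went into a strand-specific TruSeq preparation. STAR 2.5.3a, Cuffnorm, DESeq 1.16.1, FastQC 0.11.5 and the build mm10 are named, without roles, in the submitters' processing notes. The deposited counts are whole numbers per gene with no normalization, and the deposited TPM values were scaled by the authors to the same total in each library; which program counted the reads, on which annotation and with which strand setting, is not given in the sources used here. Columns were matched to libraries by the library names in the labels.

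Genes were filtered with filterByExpr (minimum count 10), which left 22360 of 50559, and tested with the quasi-likelihood test of edgeR 4.0.16 in R 4.3.3, with TMM factors and group as the only term, and Benjamini-Hochberg adjustment at 0.05 over all genes. The SE of a log2 fold change is its size divided by the square root of the F statistic. Relative transcript length is the ratio of counts to TPM. Levels were compared with exact sign-flip permutation tests on log2(TPM + 0.1) in SciPy 1.17.1. Alternatives were other scaling factors, no filter, DESeq2 1.42.0, limma 3.58.1 (voom, or trend on log2 TPM with a pseudocount of 1 or 0.1 and a minimum mean TPM of 0.1 or none), a replicate block and leaving out each library. Removal of the length trend and DESeq2 without single libraries were added after the data were seen. The count tests were tested on simulated data.

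Of the deposited columns, none was left out. Gene positions are from GENCODE M21 (mm10) and promoter windows from RefSeq (GRCm38.p6). The members and lists were chosen with earlier results of these data known. Named were all members, Wnt3, all ephrins and EphB receptors, the 3 signalling partners with the smallest p in each list and the 3 genes most like the member with the largest fold change; the genes near Epha8, the marker genes named, Grb2, Cdc42 and the genes that overlap a member were chosen after their values were seen. Counting error sets the precision of scarce genes such as Epha1.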

Additional observations from a re-analysis of the deposited data

How the results depend on the processing

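The number of genes called over the whole table was 0 by edgeR under every scaling, filter and left-out library tried, 0 by limma voom and limma-trend, and 64 by DESeq2, which gave 29, 13 and 64 without overexpression library 1, 2 or 3 and 88, 132 and 108 without control library 1, 2 or 3. The number of EphA receptors called was 0 except with DESeq2, where it was 1 with all libraries and also 1 without control library 2, and 0 to 1 over the left-out libraries; partners called stayed at 0 under all of these. Whether libraries with the same number belong together is not given in the labels. The deviations of same-numbered libraries from their group means correlated at 0.06, -0.02 and -0.01, beside -0.15 to 0.12 for libraries of unlike number. With 3 libraries per group these values cannot decide whether the libraries were paired. With the replicate number as a replicate block, edgeR called 0 genes and 0 EphA receptors, and the log2 fold change of Epha8 was -1.17. The log2 fold change of Epha8 kept its sign in all 16 alternatives, between -1.31 and -0.65. Epha8 was chosen for being lower in these libraries, so its kept sign is a description only. In 4 of the 16 its value moved from -1.17 by at least its SD of log2 CPM within groups. The smallest change was on log2(TPM + 1), a scale that understates low genes, and it was -0.91 on log2(TPM + 0.1). Epha1, Epha2 and Epha7 also kept their sign in 16 of 16, Epha4 in 15, Epha5 and Epha10 in 14, Epha3 in 13 and Epha6 in 12. Neighbours in the order of levels that kept their order numbered 4 with TPM, 5 with CPM per kb and 5 with CPM alone. They numbered 4 to 6 without single libraries. The members were ranked anew under each of these, so the pairs are not all the same. With CPM alone or per kb of longest annotated transcript, Epha5 lay above Epha7 in every library, the reverse of the mean TPM order. Depth limits Epha1, with 10 to 33 counts in a library.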

Other observations

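Within 250000 bases of Epha8 on chromosome 4, GENCODE M21 lists 5 other protein-coding genes, all on the minus strand. The groups overlapped for each of them, where they did not overlap in 11.9% of all tested genes. Ephb2, another ephrin receptor, was at 10.7, 12.5 and 19.8 CPM in overexpression and 12.7, 15.1 and 15.7 CPM in control, a log2 fold change of -0.02 ± 0.26 (SE). The complement genes C1qa, C1qb and C1qc, markers of microglia, had log2 fold changes of -0.26 ± 0.41, -0.21 ± 0.39 and -0.36 ± 0.31 (SE), with control library 2 highest for each at 67.9, 64.9 and 46.5 CPM. Zbtb40, a zinc finger gene and the nearest protein-coding gene upstream, was at 10.5, 11.8 and 20.1 CPM in overexpression and 11.1, 8.16 and 10.4 CPM in control, a log2 fold change of 0.52 ± 0.29 (SE).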
